A study of Saccharomyces cerevisiae with 30 samples.

Results

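CUP1-1 (YHR053C) and CUP1-2 (YHR055C) are the 2 reference copies of the yeast copper metallothionein gene, and they lie in a tandem repeat on chromosome VIII of Saccharomyces cerevisiae (build sacCer3, which is the same assembly as R64). The locus was taken as a window of 5001 bp that runs from inside CIC1 to inside RSC30 and touches 9 of the 6477 genes of the gene table. It was chosen by the measured values described here, since break peaks at it were already known, so every value at the locus is a description and none was tested. The members are 2 genes, read in 22 peak lists of 22 libraries.

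Metallothioneins are small cysteine-rich proteins that bind copper, and Cup1 protects yeast from copper toxicity. Its transcription is switched on by the copper-sensing activator Cup2, also called Ace1. Laboratory strains often carry the repeat in more copies than the reference sequence does, the number of copies varies between strains, and each unit is known to hold a replication origin. The number of copies in the strains used here is not given in the sources used here, and reads from identical copies cannot be told apart.

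The strains were built for anchor-away, where rapamycin takes an FRB-tagged protein out of the nucleus. Break-seq, which captures the ends of broken DNA, was run on WT-FRB, INO80-FRB, Mot1-FRB and INO80-FRB Mot1-FRB cells in log phase, with and without 100 mM hydroxyurea (HU), an inhibitor of nucleotide supply that slows replication forks. All of these cells, WT-FRB included, had rapamycin for 3 h, and each of the 8 groups held 2 libraries. INO80 is a chromatin remodelling ATPase, Mot1 displaces the TATA-binding protein, and how long HU was present is not given in the sources used here. ChIP-seq was run on Orc5-FRB cells, for a subunit of the origin recognition complex, with 1 library without and 1 with rapamycin, and on Arp5-FRB cells, for a subunit of the INO80 complex, with 2 and 2. The labels' protocol gives rapamycin at 8 µg/ml for 1 h, and then arrest in G1 by alpha factor at 5 µg/ml, for all ChIP cells, those titled as without rapamycin included. The groups with and without rapamycin were taken from the titles, so each comparison of Orc5 or Arp5 by rapamycin rests on the titles alone. The labels do not say whether libraries of a group came from separate cultures.

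In the gene table the low ends of CUP1-1 (VIII:212535-212720, minus strand, 186 bp) and CUP1-2 (VIII:214533-214718, minus strand) were 1998 bp apart, and that distance is called the repeat unit here. The same 1998 bp separated the noncoding RNA genes RUF5-1 (VIII:212409-213118) and RUF5-2 (VIII:214407-215116), each of which runs across its CUP1 on the plus strand. It also separated YHR052C-B (VIII:212519-212692) from YHR054C-B (VIII:214517-214690), short reading frames that overlap CUP1 on the same strand. YHR054C (VIII:213185-214249, minus strand, 1065 bp) fills most of the space between the copies. Its low end lay 1998 bp below that of RSC30 (VIII:215183-217834, minus strand, 2652 bp), which encodes a subunit of the RSC chromatin remodeller. CIC1 (VIII:210848-211978, plus strand), an adaptor of the proteasome with a part in ribosome assembly, reaches into the low end of the window.

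**Figure D1:**
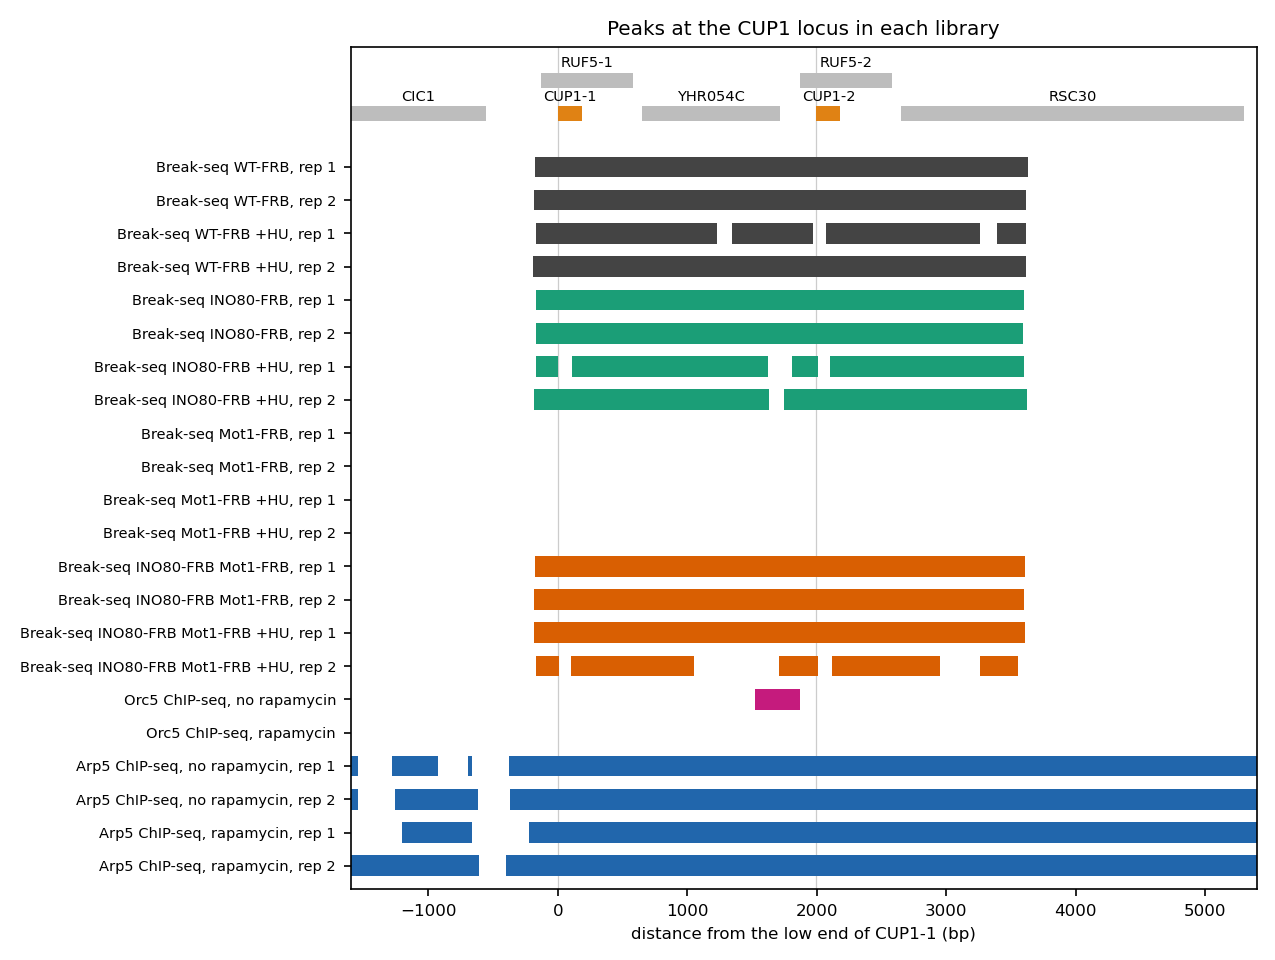
Peaks at the CUP1 locus in each of the 22 lists, as bars against the distance in bp from the low end of CUP1-1, with the genes drawn on top (overlapping YHR052C-B and YHR054C-B left out). Break peaks filled nearly the same stretch in 12 lists and were missing from the 4 Mot1-FRB lists, the 1 Orc5 peak ran from inside YHR054C up to RUF5-2, and 1 wide Arp5 peak ran from before RUF5-1 past the right edge of the plot.

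Break peaks covered the CUP1 repeat, whole or in pieces, in 12 of the 16 Break-seq lists and none of it in the 4 Mot1-FRB lists. In all 12 the stretch under break peaks began within 24 bp of the same place, between 212346 and 212370. That is 39 to 63 bp before RUF5-1. The stretch ended within 76 bp of the same place, between 216090 and 216166, which is 908 to 984 bp inside RSC30. From end to end it measured 3725 to 3807 bp, with a median of 1.89 repeat units. CIC1 on the left had no break peak in any list, and neither did CPR2, a cyclophilin gene, or MED6, a Mediator subunit gene, on the right. COX6, for a cytochrome c oxidase subunit, and YHR050W-A were likewise free of break peaks. The nearest other break peak lay 84578 to 211193 bp to the left and 60446 to 327858 bp to the right in these 12 lists.

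The WT-FRB libraries each had 1 peak, covering 3807 and 3799 bp of the locus. With HU the WT-FRB libraries covered 3430 bp in 4 peaks and 3803 bp in 1 peak. The INO80-FRB libraries covered 3764 and 3759 bp, each in 1 peak. With HU they covered 3382 bp in 4 peaks and 3683 bp in 2 peaks. The INO80-FRB Mot1-FRB libraries covered 3785 and 3782 bp, each in 1 peak, and with HU 3788 bp in 1 peak and 2563 bp in 5 peaks. Outside Mot1-FRB, every library without HU thus showed 1 continuous stretch, whereas 4 of 6 libraries with HU showed it in pieces.

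The covered length without HU was 3803 ± 5.66 bp (SD, n = 2) in WT-FRB, 3761.5 ± 3.54 bp in INO80-FRB and 3783.5 ± 2.12 bp in INO80-FRB Mot1-FRB, and the 3 groups did not overlap. The difference of INO80-FRB from WT-FRB was -41.5 bp and lay in the outer ends alone. From CUP1-1 to CUP1-2 both groups were covered whole. The lowest local background, used below to gauge depth, averaged 27.6, 8.75 and 16.3 reads in the 3 groups, in the order above. The part of depth in these lengths was not tested. With HU the lengths were 3616.5 ± 264, 3532.5 ± 213 and 3175.5 ± 866 bp (SD, n = 2 each), and all 3 groups overlapped. The change with HU was -186.5 bp in WT-FRB, but 0 without the first HU library and -373 bp without the second. It was -229 bp in INO80-FRB, but -78.5 bp without the first HU library and -379.5 bp without the second. In INO80-FRB Mot1-FRB it was -608 bp, but 4.5 bp without the second HU library and -1220.5 bp without the first. With HU, INO80-FRB was 84 bp below WT-FRB on average (a difference of -84 bp), and this turned to 66.5 bp without the first INO80-FRB library and to -234.5 bp without the second. It was 102.5 bp without the second WT-FRB library and -270.5 bp without the first.

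By the lowest local background, depth moved with these pieces in part. Peak lists give no read totals, so the lowest local background in a list, recovered in reads from the authors' fold and p-value, was used to gauge depth. This background was 6.66 to 11.0 reads in the 4 lists with HU where the stretch was in pieces, 10.7 to 14.3 in the 2 with HU where it was whole, and 8.11 to 31.1 in the 6 without HU. The INO80-FRB libraries without HU, both whole, had 9.39 and 8.11 reads. Reads stacked at the highest point of the CUP1 peak numbered 93 and 79 in them. In the 4 split lists they numbered 74, 69, 75 and 48, and in the 2 whole ones with HU 87 and 110. By these reads the split lists, at 48 to 75, all lay below the 8 whole ones, at 79 to 164. The part of depth in the splitting was not tested.

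The share of all genes with a break peak in both libraries of a group was 2.18% in WT-FRB (141 of 6477), 1.84% with HU, 2.24% in INO80-FRB, 2.08% with HU, 1.85% in INO80-FRB Mot1-FRB and 1.37% with HU. CUP1-1 and CUP1-2 both had one in each of these 6 groups, as did 8 of the 9 genes touching the window. Nothing is read from that contrast, since break peaks chose the locus. In Mot1-FRB the share of all genes was 0.17%, or 0.124% with HU, and neither CUP1 gene had a peak.

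CUP1-1 was covered over its whole length in 10 lists and CUP1-2 in 9. The exceptions for CUP1-1 were the first INO80-FRB library with HU, where 44.6% of the gene was under peaks, and the second INO80-FRB Mot1-FRB library with HU, where 52.7% was. For CUP1-2 they were the same 2 libraries, at 47.3% and 43.5%, and the first WT-FRB library with HU, at 61.3%. Of the 11 gaps in the covered stretch 5 touched a CUP1 gene, and these were 88 to 105 bp long. Counted from the low end of its CUP1, the gap of the first INO80-FRB HU library ran from base 4 to 106 in copy 1 and from 9 to 106 in copy 2. In the second INO80-FRB Mot1-FRB HU library it ran from base 12 to 99 and from 12 to 116. The first WT-FRB library with HU had such a gap at CUP1-2 alone, and it began before the low end of the gene. The sequences of the copies were not compared here, and where they are identical a match between them is not a second observation.

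The noncoding RUF5-1 and RUF5-2 contain the gaps at CUP1 and lost less of their length, with at least 85.5% and 85.2% of the gene covered in every one of the 12 lists. YHR054C, whose product has no known function, was covered whole in 8 lists. It was covered to 88.7% in the first WT-FRB library with HU, 91.7% and 91.8% in the INO80-FRB libraries with HU and 37.7% in the second INO80-FRB Mot1-FRB library with HU. That last library had the longest gap, 663 bp within YHR054C, and a gap of 306 bp in RSC30. RSC30 was covered over 22.7% to 37.1% of its length in the 12 lists, always at its low end, which is the 3' end of the gene. The last base of YHR054C moved up by 1 unit is 216247, so the peaks ended just short of where the repeated stretch ends in the gene table.

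**Figure D2:**
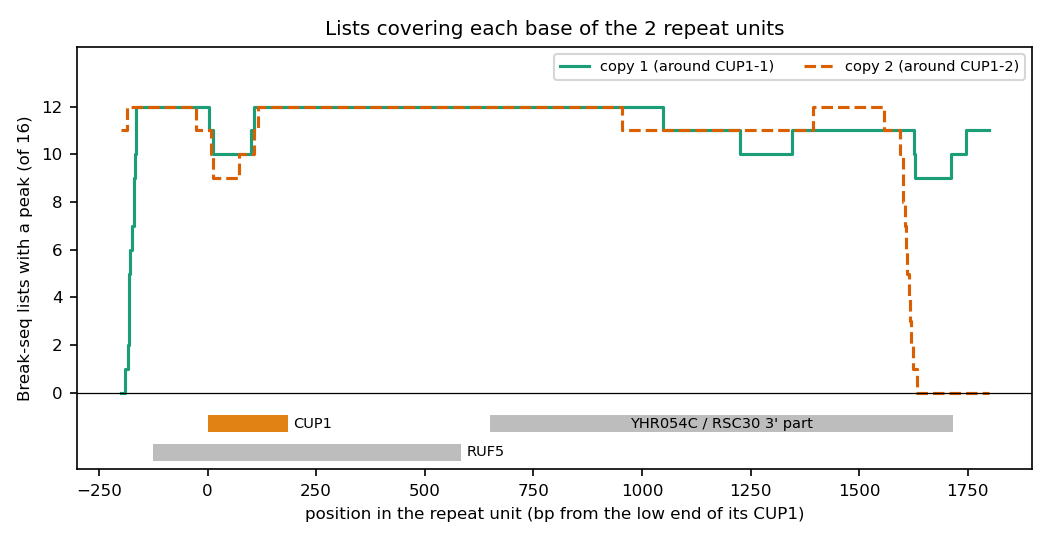
Number of the 16 Break-seq lists with a peak over each base of the repeat unit, against the position in bp from the low end of its CUP1 gene, for the copy around CUP1-1 (solid) and the copy around CUP1-2 (dashed). Cover was 12 lists over most of the unit, dipped to 10 and 9 lists inside CUP1, and fell to 0 at the outer ends.

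Folded onto the unit, the dip at CUP1 was shared by both copies, with 10 to 12 lists over a base of CUP1-1 and 9 to 12 over a base of CUP1-2. Between base 117 and base 952, the later part of RUF5 and the first part of YHR054C or of RSC30 as the coordinates run, all 12 lists had a peak in both copies. A second dip, to 9 lists, lay at base 1628 to 1711 of copy 1, at the high end of YHR054C. Across the stretch shared by all 12 lists, 2271 of 3721 bases (61.0%) were under a peak in every list. No base there had fewer than 9.

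The highest points of the 23 peaks lay mostly in the noncoding RNA genes. RUF5-2 held 9, RUF5-1 held 7, RSC30 held 4, YHR054C held 2 and 1 lay in no gene. None lay in CUP1-1 or CUP1-2, which are 186 bp each against 710 bp for each RUF5 gene. Most of the 23 peaks were pieces from the 4 split lists, so they are not separate observations. In the 8 lists where the stretch was 1 peak, its highest point lay 236 to 443 bp above the low end of a CUP1 in 7, in copy 1 or copy 2 as the list had it. The exception was the second WT-FRB library with HU, at base 1156 of copy 2, inside RSC30. Where the copies are identical, a highest point names a place in the unit and not a copy.

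The CUP1 stretch was the widest break peak of its list in all 8 lists where it was in 1 piece. It measured 3759 to 3807 bp there, against median widths of 242 to 377 bp over the 12 lists. A peak away from CUP1 was nearly as wide in both WT-FRB libraries without HU and in the second one with HU. The same held in the first INO80-FRB library without HU. In these lists the CUP1 stretch thus did not stand alone in width. In the lists with pieces, the widest CUP1 piece measured 1396 bp in the first WT-FRB library with HU, 1520 and 1874 bp in the INO80-FRB libraries with HU and 949 bp in the second INO80-FRB Mot1-FRB library with HU. These pieces ranked between the third and the 16th widest of their lists.

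**Figure D3:**
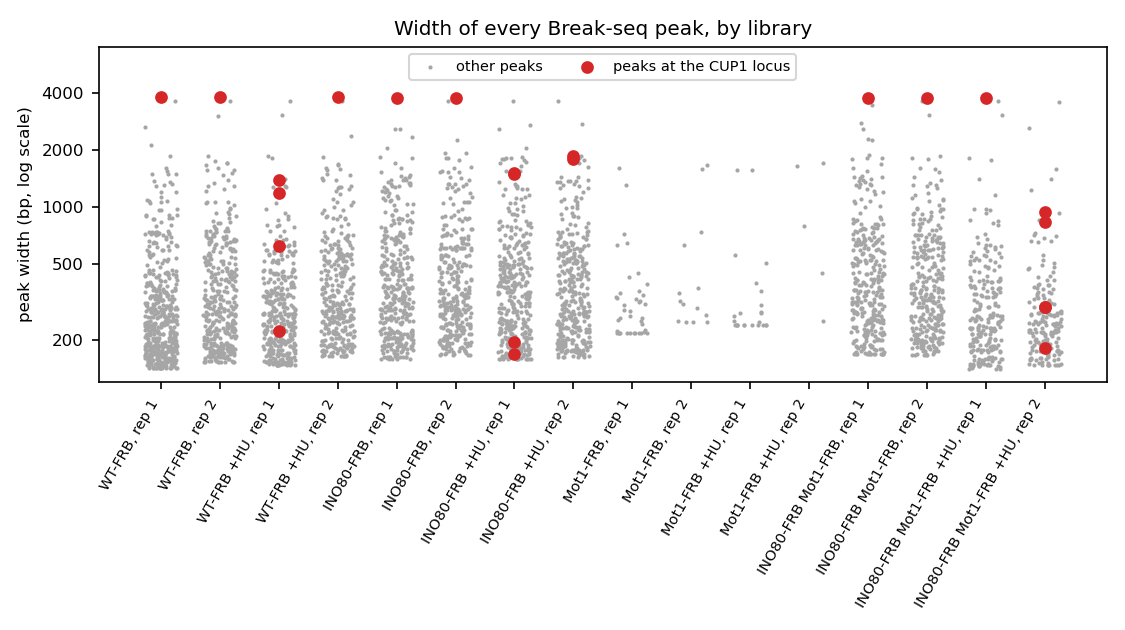
Width in bp, on a log scale, of every peak in each of the 16 Break-seq lists, with peaks at the CUP1 locus as large points and all others as small ones. The CUP1 peak tops its list at 3759 to 3807 bp in 8 lists, in some of them with another peak close below it. The lists with pieces have CUP1 points lower down.

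In height the CUP1 peaks were less extreme than in width. The fold is the authors' value of a peak over its local background, and the highest one at the locus was 2.34 and 2.56 in the WT-FRB libraries. It was 3.04 and 2.91 in WT-FRB with HU, 3.36 and 3.29 in INO80-FRB, and 3.21 and 2.90 in INO80-FRB with HU. It was 3.01 and 2.75 in INO80-FRB Mot1-FRB and 2.83 and 3.28 with HU. WT-FRB without HU was thus lowest, and it did not overlap with WT-FRB with HU or with INO80-FRB. Within its list the CUP1 peak ranked between the 13.1 and the 23.9 percent highest by fold, with 13.1 and 16.4 percent in WT-FRB and 14.2 and 15.7 percent in INO80-FRB. By this rank the WT-FRB and INO80-FRB libraries overlapped. Folds come from separately called lists and depend on depth, whose lowest background was 31.1 and 24.2 reads in WT-FRB and 9.39 and 8.11 in INO80-FRB. Its part in the difference was not tested.

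The pileup, the recovered number of reads stacked at the highest point, was 164 and 162 in WT-FRB, 93 and 79 in INO80-FRB, and 107 and 158 in INO80-FRB Mot1-FRB. With HU it was 74 and 87, 69 and 75, and 110 and 48. The local background used at CUP1 was itself 2.10 to 3.05 times the lowest background of the same list. Set against that lowest background, the pileup at CUP1 was 5.28 to 9.91 times as high, well above the fold of 2.34 to 3.36. The fold at the highest point is therefore measured from a local level above the lowest one of the list. That lowest value is a minimum over all peaks of the list, so every peak lies at or above it. The level at CUP1 was 69.4 reads against a median background of 37.0 in the first WT-FRB library. It was 20.8 against 21.5 in the first INO80-FRB library with HU, the only one of these lists where it lay below the median. The number of repeat copies in the cells was not measured, so breaks and extra copies of the repeat cannot be told apart in these peak lists.

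**Figure D4:**
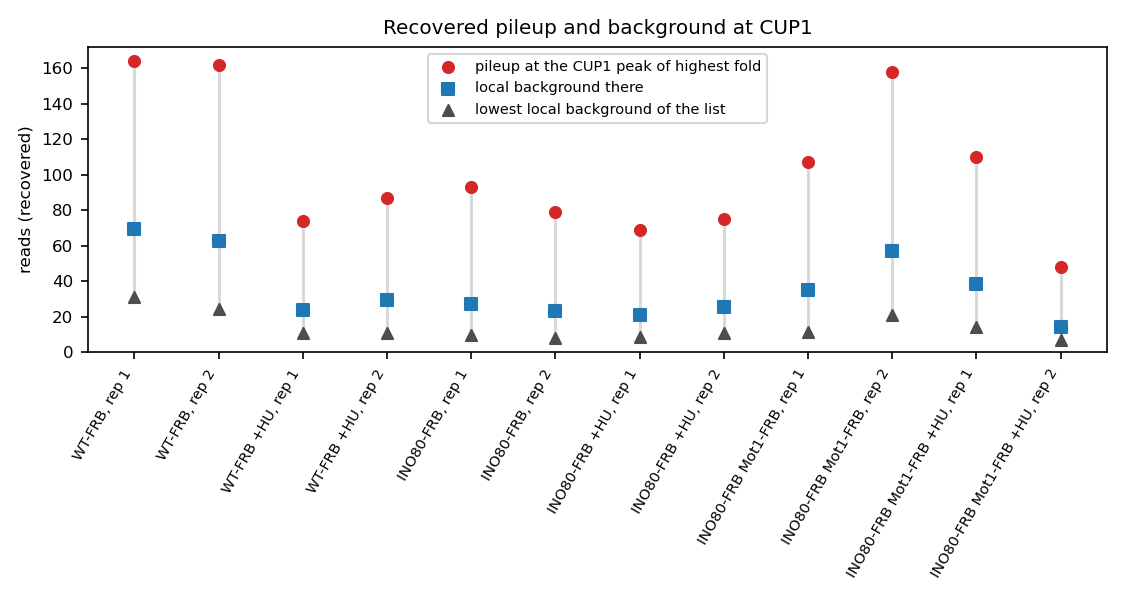
Recovered reads in the 12 Break-seq lists with a CUP1 peak: the pileup at the CUP1 peak of highest fold (circles), the local background there (squares) and the lowest local background of the list (triangles). The local background at CUP1 was 2.10 to 3.05 times the list's lowest, which is a minimum over all its peaks, and the pileup was higher again.

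The 4 Mot1-FRB lists held 40 and 14 peaks without HU and 24 and 5 with HU, against 180 to 510 in the other 12. Their lowest background was 0.307 and 0.647 reads, or 0.167 and 1.13 with HU. The lowest fold that any of their peaks had was 2.30 and 3.95, or 2.03 and 3.40 with HU, and CUP1 peaks in the other strains had folds of 2.34 to 3.36. Fewer breaks at CUP1 and a list too shallow to show them cannot be told apart in these libraries. The INO80-FRB Mot1-FRB cells, depleted of Mot1 as well, had the CUP1 stretch in 4 of 4 lists.

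Orc5 had 1 peak in the locus without rapamycin and none with it. The peak, at VIII:214061-214407, was 347 bp wide, with 189 bp at the high end of YHR054C and 157 bp in the space before RUF5-2. It ended 126 bp below the low end of CUP1-2. It touched neither CUP1 gene, and 2 of the 9 genes of the window. Over all genes the share touched by an Orc5 peak was 16.2% without and 20.8% with rapamycin. There was no Orc5 peak in the stretch 1 unit lower (VIII:212063-212409) or 1 unit higher (VIII:216059-216405). Neither is a full counterpart of the peak in the gene table. The lower stretch holds no copy of YHR054C, where 189 bp of the peak lay. The upper stretch lies in part beyond the repeat as the gene table marks it.

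The peak's absence with rapamycin stood out locally but not in the list as a whole. Within 15 kb of the locus, all 7 other Orc5 peaks without rapamycin were overlapped by one with rapamycin, and the nearest with rapamycin ended at 209589 and began at 222300, which is 4472 and 7893 bp away. Over the whole list 27.1% of peaks without rapamycin (384 of 1415) had none with it. The list with rapamycin was longer, at 1968 peaks, although rapamycin was used to remove the FRB-tagged protein. Each condition had 1 library and positions only, so the loss has no replicate check. The median width in the list without rapamycin was 226 bp, and 37.9% of its peaks were at least as wide as the one at CUP1.

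Break peaks covered the whole of the Orc5 peak in 9 of the 12 lists. They covered 46.7% of it in the first and 65.7% in the second INO80-FRB library with HU. In the second INO80-FRB Mot1-FRB library with HU the gap of 663 bp reached into it. The dip to 9 lists at the high end of YHR054C described above falls on this Orc5 peak.

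Arp5 had a single wide peak over the whole repeat in all 4 libraries. Without rapamycin it ran over VIII:212157-220467 and VIII:212165-220380, and with rapamycin over VIII:212316-220382 and VIII:212132-221194. It began 93 to 277 bp before RUF5-1, close to where the break peaks began. Unlike them it went on through RSC30, CPR2 and MED6, 3880 to 4694 bp past the window, so its values belong to the repeat and to that unique stretch together. CUP1-1 and CUP1-2 were both covered whole, and all 9 genes of the window had an Arp5 peak in every library. Nearly all genes did, namely 91.4% without and 90.5% with rapamycin of the 4051 genes on those 11 chromosomes where none of the 4 lists was empty.

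The enrichment, the authors' ratio of ChIP to control reads in the peak, was 17.8 and 19.5 without rapamycin and 14.3 and 20.5 with it. The means were 18.7 ± 1.16 and 17.4 ± 4.41 (SD, n = 2 each), and the groups overlapped. The highest point was 1197 and 1218 reads without and 817 and 1373 with rapamycin, with overlap again. Arp5 peaks within 15 kb on either side, 10 to 20 per list, had enrichments of 3.85 to 7.32 and highest points of 117 to 308 reads. The peak over CUP1 was therefore above each of its neighbours in both measures, in all 4 libraries.

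Against the neighbours the CUP1 peak had more ChIP reads and fewer control reads per bp. ChIP reads per bp of the CUP1 peak were 1.11 and 1.07 without and 0.776 and 1.02 with rapamycin, where the medians of the neighbours were 0.674, 0.644, 0.639 and 0.585. Control reads per bp were 0.0624 and 0.0550 without and 0.0543 and 0.0494 with rapamycin, lower than the neighbours' medians of 0.119, 0.105, 0.118 and 0.0877. Against the whole list, narrow peaks included, the ChIP reads per bp were 0.835 to 1.07 times the median peak, and the control reads per bp 0.193 to 0.218 times. Among peaks of at least 1 kb, its control reads per bp ranked 177 of 891 and 171 of 919 from the lowest without rapamycin. With rapamycin they ranked 171 of 978 and 222 of 1110. These values are for the whole wide peak, unique stretch included. The low control went along with the high ratio, and its part in it was not tested.

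By enrichment the CUP1 peak ranked 606 of 5290 and 653 of 5443 without rapamycin, and 781 of 5809 and 1275 of 6302 with it. By highest point it ranked 5 and 4 without and 3 and 3 with rapamycin. Among peaks of at least 1 kb it was 3 by highest point in each list, and 161 of 891, 164 of 919, 160 of 978 and 217 of 1110 by enrichment. The remaining Arp5 peaks of the window lay at CIC1, 1 or 2 per list, with enrichments of 4.71 to 5.72.

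**Figure D5:**
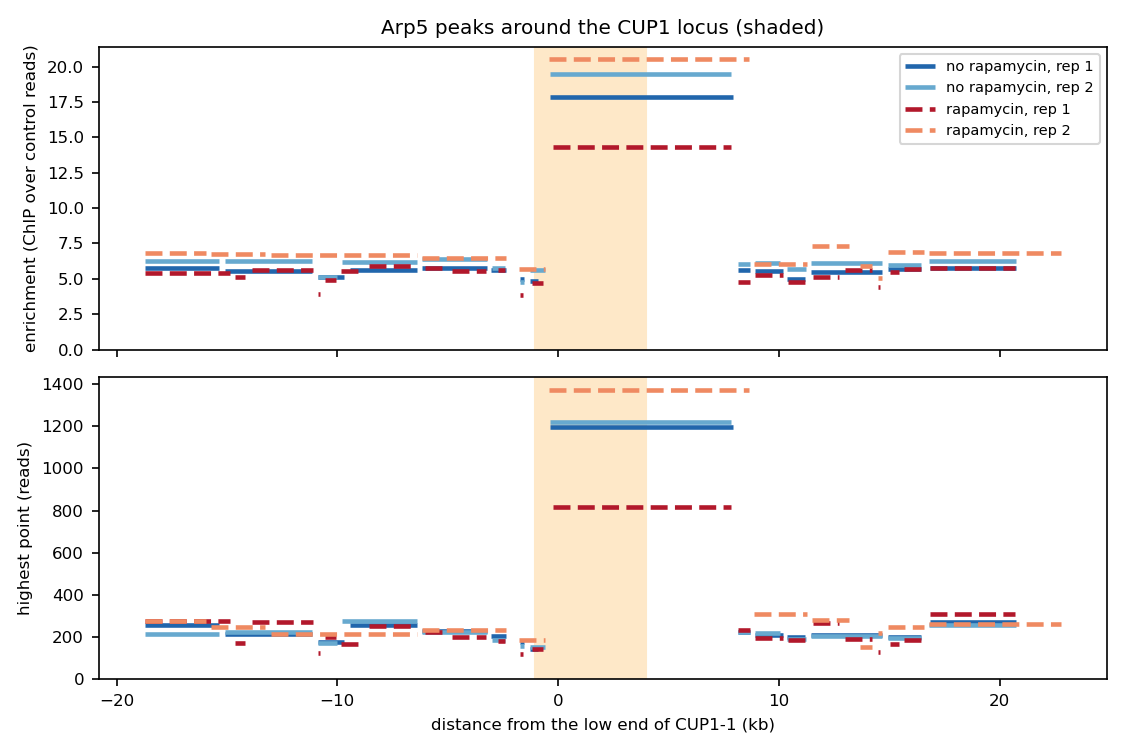
Arp5 peaks around the CUP1 locus (shaded) in 4 libraries, drawn as bars at their enrichment (top, ChIP over control reads) and highest point (bottom, reads) against the distance in kb from the low end of CUP1-1. The peak over the repeat lies at an enrichment of 14.3 to 20.5 and a height of 817 to 1373 reads, above all neighbours, with and without rapamycin.

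Of a list of 21 other genes of copper uptake, sensing and delivery, 0 were touched by break peaks in the 16 lists. Of the 6477 genes, 334 away from the CUP1 locus had a break peak in any list, so 0 of 21 is near the background. The list included the activator CUP2, the sensor of low copper MAC1, the transporters CTR1, CTR2 and CTR3, and CRS5, the other yeast metallothionein. Orc5 peaks lay at CTR2 in both lists, at PCA1, a cadmium and copper pump, without rapamycin and at SCO1, a copper chaperone of cytochrome oxidase, with rapamycin. That is 2 of 21 in each list, set against the 16.2% and 20.8% of all genes. Of the 11 copper genes on chromosomes with Arp5 peaks in all lists, 10 had one in all 4 libraries and FRE7, a metal reductase, in 2. The highest Arp5 enrichments at these 11 genes were 25.8 at SOD1, the copper and zinc superoxide dismutase, 10.5 at CUP2, 7.72 at CTR2 and 6.63 at CRS5. Copper genes on chromosomes that were empty in some lists reached higher values in the lists that had peaks there. These were 86.1 at COX11, 84.0 at HAA1, 69.7 at CTR1 and 27.5 at PIC2.

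Other tandem or duplicated genes had patterns of their own. Ribosomal RNA genes RDN37-1 and RDN37-2 had a break peak in each of the 16 lists, Mot1-FRB ones too, with folds of 1.53 to 7.40 and 1.43 to 11.6. The sodium pump genes ENA1 and ENA5 each had one in 4 lists and ENA2 in none, and the hexose transporter genes HXT6 and HXT7 in 3 and 5. The CUP1 pattern, a peak in the 12 lists outside Mot1-FRB and none in the 4 within it, was found at 50 of the 334 genes elsewhere in the genome with a break peak in any list. Ordered by the difference in fold summed over the 16 lists, the closest were YLR410W-B (2.68), YRF1-1 (3.06), YMR045C (3.21), YAR009C (3.61) and YOR192C-B (3.63). YRF1-1 encodes a helicase of a subtelomeric repeat, and the others are 3591 to 5314 bp long and have no gene name in the gene table. The lists differ in depth, the Mot1-FRB ones most, and every gene is read in the same lists, so this likeness is a description.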

How the data were processed

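Peak lists of 22 libraries were used, each called per library. Per the submitters' processing notes, reads (75 bp for Break-seq, 50 bp for ChIP-seq) were aligned with Bowtie2 to sacCer3, and no versions are given. Which peak callers were used is not given in the sources used here. The authors' deposited Break-seq lists hold a score, a fold over local background, a −log10 p-value and a −log10 q-value for each peak. The score is the −log10 q times 10, cut to a whole number. The deposited Arp5 lists give, per the file headers, a count of ChIP reads, a control signal in reads, their ratio (enrichment), a q-value and the highest signal in reads. The deposited Orc5 lists hold positions only, used as given, and whether they count from 0 or 1 is not stated.

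Break-seq positions were converted to 1-based. A peak counted at a gene or the locus with an overlap of at least 1 bp. The pileup and background of a peak were solved for as the Poisson values that give its fold and its −log10 p, with a tolerance of 0.001 on the latter. A whole pileup was found for 100% of peaks in each list, and the recovery was tested on data simulated by the same formula. The simulated backgrounds did not reach down to the lowest ones of the Mot1-FRB lists. The simulated folds did not reach down to the lowest ones of the other lists. In those ranges the recovery was not tested. Depth per library is unknown, so no intervals are given. Groups follow the genotypes and treatments in the labels, and no test was run. Gene positions came from a RefSeq table of R64. The members and gene lists, and the rule for naming genes (the window and its flanks, copper genes, other repeats, and the 5 with the most similar pattern), were chosen with earlier results of these data known. The ChIP protocol in the labels speaks of Orc2 depletion, whereas the genotypes are Orc5 and Arp5. The 8 NET-seq libraries of the 30 samples are not analysed here. Python 3.11.15, pandas 2.3.3, NumPy 2.4.6, SciPy 1.17.1 and matplotlib 3.10.9 were used.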

Additional observations from a re-analysis of the deposited data

Results flagged for a closer look

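The highest fold of a break peak at CUP1 moved in opposite directions with HU in WT-FRB and INO80-FRB. It was higher by 0.522 with HU in WT-FRB, where 2.34 and 2.56 became 3.04 and 2.91. In INO80-FRB the change was -0.270, where 3.36 and 3.29 became 3.21 and 2.90. Libraries with and without HU did not overlap in either strain, and the difference between the strains was not tested. The lowest background moved too, from 31.1 and 24.2 reads to 11.0 and 10.7 in WT-FRB and from 9.39 and 8.11 to 8.44 and 10.7 in INO80-FRB, and its part in the change was not tested. In INO80-FRB Mot1-FRB the highest fold was 3.01 and 2.75, and 2.83 and 3.28 with HU, with overlap. The median fold of a list was 1.87 and 1.99 in WT-FRB, and 2.37 and 2.36 with HU. In INO80-FRB it was 2.34 and 2.46, and 2.42 and 2.37 with HU. The CUP1 peak's rank by fold was 13.1 and 16.4 percent in WT-FRB, and 14.8 and 21.7 with HU. In INO80-FRB it was 14.2 and 15.7 percent, and 19.6 and 23.9 with HU. By this rank the strains did not move in opposite directions.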

How the results depend on the processing

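Of 121 alternatives over 28 results, 106 were labelled as the same and 15 as moved. Lengths, folds and enrichments were the same if they shifted by less than the SD between libraries. Counts of lists or peaks were judged by a fixed limit on their ratio, with no spread between libraries. With 2 libraries per group, leaving out 1 always moves a mean by less than that SD. Such alternatives for lengths, folds and enrichments were thus bound to be labelled as the same, and the tally is no measure of stability. Of the 106, 3 changed the sign of a difference in covered length. Leaving out 1 library took the HU change in INO80-FRB Mot1-FRB from -608 to between -1220.5 and 4.5 bp, and the difference of INO80-FRB from WT-FRB with HU from -84 to between -270.5 and 102.5 bp, with 66.5 bp without the first INO80-FRB library. Counting from CUP1-1 to CUP1-2 alone, the covered length was 2184 bp in WT-FRB, INO80-FRB and INO80-FRB Mot1-FRB, so that INO80-FRB and WT-FRB differed by 0 bp, and 2074.5, 1931.5 and 1756 bp with HU. Arp5 peaks per list then numbered 1 with and 1 without rapamycin, as they did with rapamycin by midpoint, in place of 2 and 2.5. The Arp5 enrichment was 10.9 without and 11.3 with rapamycin as a mean over the peaks of the window, and 4.32 and 3.65 divided by the list's median. These shifts follow from the smaller window, the added CIC1 peaks and the changed scale. By midpoint, 8 break peaks fell in copy 2 in place of 17. The locus had a break peak in 12 of 12 lists when the 4 Mot1-FRB lists were left out, an alternative chosen after seeing the data. No paired analysis was possible because the results come from no test. Depth limits the Mot1-FRB lists most, with at most 1.13 reads of lowest background.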
